A study of Rattus norvegicus with 18 samples.

Results

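A set of 10 genes of antioxidant and detoxifying enzymes outside the selenoproteins was followed in the lungs of fetal and newborn Wistar rats: the superoxide dismutases Sod1, Sod2 and Sod3, catalase (Cat), the glutathione transferases Gsta1, Mgst1 and Gstp1, the quinone reductase Nqo1, and Gclc and Gclm, the subunits of glutamate-cysteine ligase. The members were chosen by gene name, as every probe set annotated to 1 of these 10 genes. No measured value entered that rule, but the genes were chosen with earlier results of these data known. This gave 11 of the 31042 probe sets of the array (a probe set is the group of oligonucleotides that reads 1 transcript), of which Gclc had 2. All 11 passed the filter on low signal, which kept 21655 probe sets and 11583 genes.

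Lungs were taken at fetal day 19 (FD19), at fetal day 22 (FD22) and 5 h after birth (P1). Fetuses were delivered by Caesarean section and newborns were born vaginally, so age, route of birth and air breathing cannot be told apart in a comparison of P1 with FD22. Each stage had 3 lysates, 1 from each of 3 litters, and each lysate gave 2 RNA samples: total RNA, and polysomal RNA from the gradient fractions in which an mRNA carried more than 7 ribosomes. The 18 samples therefore form 6 groups of 3 arrays. The labels name no treatment and 1 strain, and the number of pups in a lysate was not given in the sources used here. The values are linear signal intensities. In whole lung, fewer cells of a type and less RNA per cell cannot be told apart.

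Superoxide dismutases turn superoxide into hydrogen peroxide: Sod1 is the copper-zinc enzyme of the cytosol, Sod2 the manganese enzyme of mitochondria, and Sod3 the copper-zinc enzyme secreted into the extracellular matrix. Catalase, a peroxisomal enzyme, splits hydrogen peroxide into water and oxygen. Glutathione transferases couple glutathione to electrophiles, Nqo1 reduces quinones, and glutamate-cysteine ligase, made of the catalytic subunit Gclc and the modifier subunit Gclm, makes the first bond of glutathione. Many genes of this kind carry an antioxidant response element, which the transcription factor NRF2 binds with a small MAF partner. Birth moves the lung from the low oxygen of the fetus to air, and the lung's antioxidant enzymes are known to increase late in gestation in rats.

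RefSeq promoter windows of 300 bases (250 bases before to 50 after the gene start, build GRCr8) were matched for 9 of the 10 genes, and Sod3 had none. The core letters of the antioxidant response element, TGACNNNGC, read on both strands, were found in 4 of the 9 windows, those of Sod2, Gsta1, Gstp1 and Gclm, against 12.17% of 27457 windows of the same length. These 4 windows are shown because they hold that core. The Sod2 window is chr1:50050119-50050418 on the minus strand, that of Gsta1 chr9:31216483-31216782 on the minus strand, that of Gstp1 chr1:210769656-210769955 on the minus strand and that of Gclm chr2:213031885-213032184 on the plus strand. Each is written 5′ to 3′ along its gene, with the core in capitals.
Sod2: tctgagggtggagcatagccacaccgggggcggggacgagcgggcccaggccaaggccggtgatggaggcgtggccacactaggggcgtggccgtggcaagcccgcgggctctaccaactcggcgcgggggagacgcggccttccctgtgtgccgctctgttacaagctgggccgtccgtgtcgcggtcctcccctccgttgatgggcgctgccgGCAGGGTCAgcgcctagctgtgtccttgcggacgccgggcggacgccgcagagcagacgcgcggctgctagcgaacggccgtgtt
Gsta1: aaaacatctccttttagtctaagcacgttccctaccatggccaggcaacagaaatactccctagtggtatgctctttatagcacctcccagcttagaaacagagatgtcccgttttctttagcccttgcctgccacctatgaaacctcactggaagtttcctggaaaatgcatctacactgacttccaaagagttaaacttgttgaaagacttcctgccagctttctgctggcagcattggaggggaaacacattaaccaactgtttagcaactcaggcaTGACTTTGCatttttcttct
Gstp1: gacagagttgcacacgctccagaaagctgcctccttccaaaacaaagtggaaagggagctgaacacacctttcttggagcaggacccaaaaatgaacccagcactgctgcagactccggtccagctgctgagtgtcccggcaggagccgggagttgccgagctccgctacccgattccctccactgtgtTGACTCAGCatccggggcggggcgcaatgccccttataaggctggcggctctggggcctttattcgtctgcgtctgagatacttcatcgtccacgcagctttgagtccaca
Gclm: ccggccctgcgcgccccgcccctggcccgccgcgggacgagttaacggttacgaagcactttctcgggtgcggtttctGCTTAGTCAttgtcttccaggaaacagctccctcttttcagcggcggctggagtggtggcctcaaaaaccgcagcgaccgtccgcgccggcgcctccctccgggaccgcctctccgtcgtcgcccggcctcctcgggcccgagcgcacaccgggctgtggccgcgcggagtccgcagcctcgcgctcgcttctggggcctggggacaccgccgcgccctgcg
Counting the gene start as 1, the core began at base 31 of Gsta1 and, before the start, at base -61 of Gstp1, both on the gene's own strand. On the opposite strand it began at base -35 of Sod2 and at base -172 of Gclm, where the capitals show the reverse complement of the core. The Gstp1 core also spells the AP-1 letters TGACTCA, held by 4.53% of all windows, so these 2 matches overlap. The NF-kappaB site was in 0 of the 9 windows, against 7.6% of all windows, and the Sp1 letters GGGCGG were in those of Sod1, Sod2, Mgst1, Gstp1, Nqo1, Gclc and Gclm, against 34.89% of all windows. A match is a description of these letters only, and its part in the values below was not tested.

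Features of 2 lysates touch the results. The total and polysomal arrays of FD22 lysate 2 carried liver transcripts: the summed signal of 7 hepatocyte markers was 9984 on its polysomal array and 10201 on its total array, against at most 364 on the other 16 arrays. The polysomal array of FD19 lysate 3 was high in genes that mark later lung, with an airway club cell marker sum of 6442 against 3250.0 and 3683 on the other FD19 polysomal arrays. Its total array had a club cell sum of 3474, against 2947 and 2881 on the other FD19 total arrays. Lung markers were present on every array, and many differed between FD22 and FD19: in total RNA 4 of 4 club cell, 7 of 8 type II cell, 5 of 5 type I cell and 6 of 6 measured macrophage and neutrophil markers were called higher in FD22, and 4 of 6 smooth muscle markers lower. The part of these markers in the stage differences below was not tested. Calls below are at an adjusted p under 0.05 in limma (Benjamini-Hochberg over all 21655 probe sets), and differences are log2 of signal plus a constant of 5.6, with their standard error (SE).

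Between FD19 and FD22 the members moved apart. Gsta1, Mgst1 and Sod3 rose in total RNA, Gsta1, Mgst1 and Cat rose in polysomal RNA, and Gstp1 fell in both. That is 4 of 10 genes called in total RNA, where 20.0% of all genes were called, and 4 of 10 in polysomal RNA, where 19.6% were. After birth Sod2 and Nqo1 were higher in the polysomal RNA of P1 lung than of FD22 lung (2 of 10 genes, against 10.5% of all genes), and none of the 10 was called in total RNA by limma (0 with an unadjusted p under 0.05), where 4.96% of all genes were called. The 2 steps share the FD22 arrays. The median log2 difference of the 10 genes was -0.05 in polysomal RNA and -0.06 in total RNA for FD22 minus FD19, against -0.02 and -0.01 over all genes. For P1 minus FD22 it was 0.22 in polysomal and 0.12 in total RNA, against -0.03 and -0.05 over all genes.

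**Figure D1:**
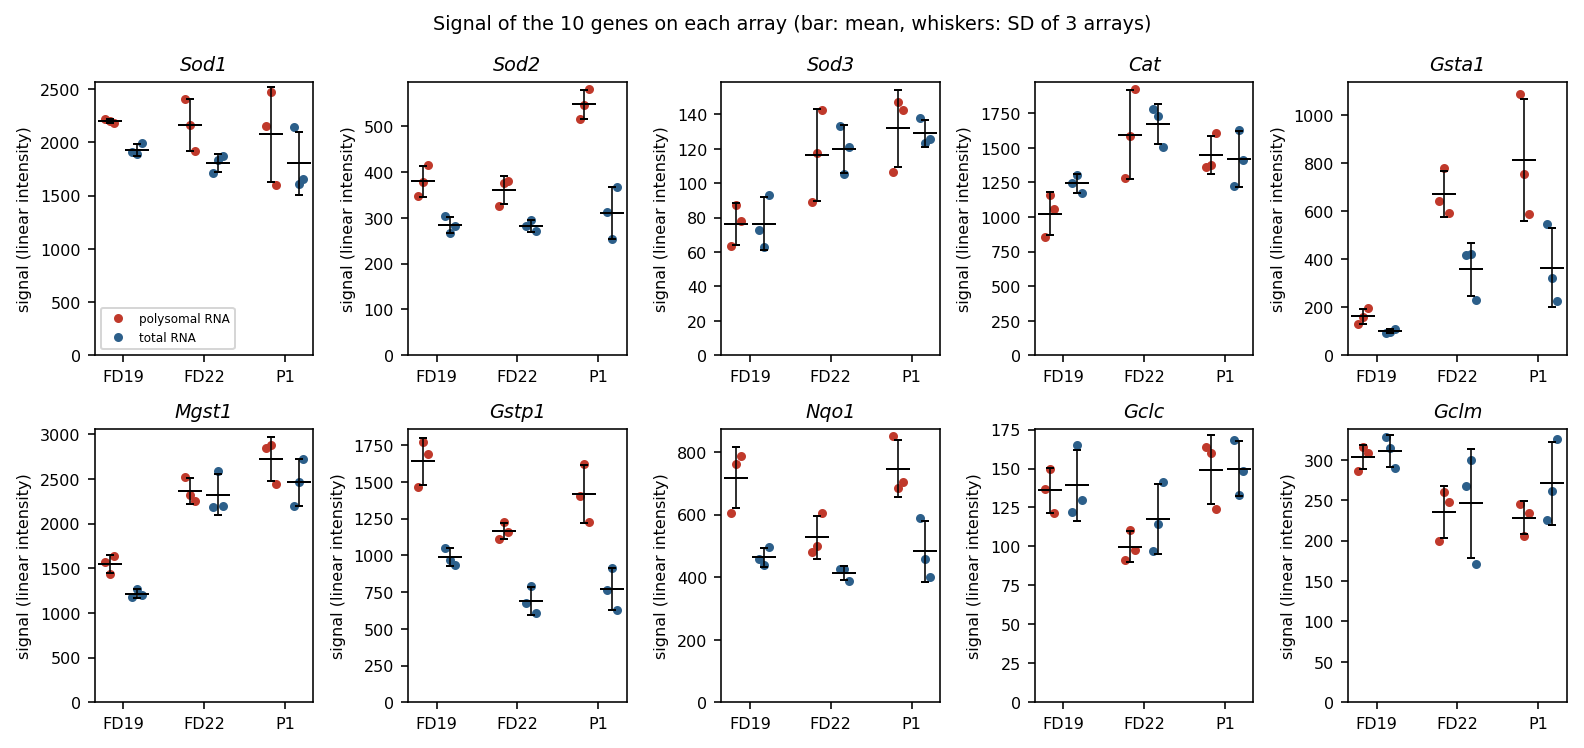
Linear signal intensity of each of the 10 genes (vertical axis, starting at 0) at FD19, FD22 and P1 (horizontal axis), with polysomal RNA in red to the left of total RNA in blue; each point is 1 array, and the bar and whiskers are the mean and SD of 3 arrays. Gclc is shown by its brighter probe set. The Gsta1 points lie between 92.8 and 196 at FD19 and between 227 and 1089 at the later stages.

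Sod1 had no called difference between stages. In polysomal RNA its signal was 2224, 2200.3 and 2186 at FD19, 2404, 2165 and 1924 at FD22 and 2156, 2473 and 1596 at P1. In total RNA it was 1906, 1892 and 1996 at FD19, 1710.1, 1836 and 1876 at FD22, and 2147, 1605 and 1658 at P1. The ranges of neighbouring stages overlapped in both RNAs, except that the FD22 total arrays all lay below the FD19 ones. None of its 4 stage differences passed the test; the farthest from 0 was -0.10 ± 0.14 (SE) in total RNA for FD22 minus FD19 (limma, adjusted p = 0.715).

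Sod2, the mitochondrial enzyme, was higher in polysomal RNA after birth, with no called difference before it. Its polysomal signal was 346, 379 and 414 at FD19, 326, 377 and 379 at FD22, and 516, 545 and 580.2 at P1. Its total signal was 303, 268 and 282 at FD19, 282, 296 and 270.3 at FD22, and 311, 255 and 368 at P1. Every P1 polysomal array lay above every fetal polysomal array, while the total arrays of the 3 stages overlapped. The polysomal difference of P1 minus FD22 was 0.60 ± 0.14 (1.51-fold, limma, adjusted p = 0.0101), with means of 547 ± 32.2 in P1 and 361 ± 29.8 in FD22 (SD, n = 3 each). In total RNA the same difference was 0.12 ± 0.14 (limma, adjusted p = 0.724). The polysomal call was lost without FD22 lysate 1 (0.53, adjusted p = 0.0549) and when only the groups compared were fitted (adjusted p = 0.0766).

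Sod3, the secreted enzyme, rose before birth. Its total signal was 133, 105 and 121 in FD22 lungs and 72.8, 63.2 and 93.3 in FD19 lungs, with no overlap. The difference was 0.62 ± 0.19 (1.54-fold, limma, adjusted p = 0.0323). In polysomal RNA it had 88.9, 118 and 142 in FD22 lungs and 63.4, 87.6 and 77.9 in FD19 lungs, again without overlap, a difference of 0.56 ± 0.19 that missed the threshold (limma, adjusted p = 0.0539) and passed it with the replicate number as a block (adjusted p = 0.031). P1 lungs had 106, 147 and 143 in polysomal and 138, 123 and 126 in total RNA, overlapping those of FD22. The total RNA call was lost without FD19 lysate 1 or 2 (adjusted p = 0.0911 and 0.147) and without FD22 lysate 1 or 3 (0.0796 and 0.0669), and with no filter (0.0507) or only the groups compared (0.0638).

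Catalase was higher in the polysomal RNA of FD22 than of FD19 lungs. In polysomal RNA it read 1281, 1584 and 1925 in FD22 lungs and 856, 1158 and 1057 in FD19 lungs. In total RNA it read 1781, 1733 and 1506 in FD22 lungs and 1248, 1306 and 1175 in FD19 lungs. The stages did not overlap in either RNA. The polysomal difference was 0.63 ± 0.15 (1.55-fold, limma, adjusted p = 0.00635), and it missed the threshold without FD19 lysate 1 (0.51, adjusted p = 0.0549). The total difference was 0.42 ± 0.15 (limma, adjusted p = 0.059). At P1 the arrays, with 1362, 1374 and 1609 in polysomal and 1225, 1626 and 1410.2 in total RNA, overlapped those of FD22, and neither difference from FD22 was called (-0.12 and -0.24).

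Of the glutathione transferases, Gsta1, a cytosolic alpha-class enzyme, had the largest step of the 10 genes. Polysomal RNA gave 642, 779 and 593 in FD22 lungs, against 131, 158 and 196 in FD19 lungs. Total RNA gave 419.5, 423 and 230.5 in FD22 lungs, against 92.8, 97.5 and 108 in FD19 lungs. The stages were far apart in both RNAs, although the total array of FD22 lysate 3 was well below the other 2. The difference was 2.03 ± 0.28 in polysomal RNA (4.07-fold, limma, adjusted p = 7.67e-05) and 1.74 ± 0.28 in total RNA (3.34-fold, limma, adjusted p = 0.00026). Both stayed past the threshold when any 1 lysate was left out. P1 lungs had 1089, 756 and 589.7 in polysomal and 548, 320.1 and 227 in total RNA, so the P1 litters differed by more than the means of P1 and FD22 did, and neither step to P1 was called. The probe set may also read close paralogues, since the RefSeq record of the gene lists Gsta3 and Gsta5 among its synonyms.

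Mgst1, a membrane-bound glutathione transferase, rose at the same step. Its polysomal signal was 2526, 2315 and 2251 in FD22 lungs and 1570.1, 1435 and 1636 in FD19 lungs. In total RNA the signal was 2185, 2588 and 2197 in FD22 lungs and 1183, 1271 and 1198 in FD19 lungs. Every FD22 array was above every FD19 array of the same RNA. The difference was 0.61 ± 0.11 in polysomal RNA (1.53-fold, limma, adjusted p = 0.000689) and 0.93 ± 0.11 in total RNA (1.90-fold, limma, adjusted p = 1.24e-05), and both remained called without any 1 lysate. The 4 club cell markers on the array rose at the same step as Gsta1 and Mgst1. They summed to between 7821 and 11027 in FD22 and between 2881 and 3474 in FD19 total RNA, with none at 0. Higher at that step in total RNA were also 7 of 8 type II, 5 of 5 type I and 6 of 6 measured macrophage and neutrophil markers. The part of any of these cell types in the result was not tested. At P1 Mgst1 had 2847, 2886 and 2438 in polysomal and 2195, 2469 and 2725 in total RNA. The differences from FD22 were 0.20 ± 0.11 and 0.08 ± 0.11, neither of them called.

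Gstp1, the pi-class enzyme, went the other way. Its polysomal signal was 1115, 1227 and 1159 in FD22 lungs and 1462, 1770.5 and 1692 in FD19 lungs. Its total signal was 673, 793 and 605 in FD22 lungs and 1054, 972 and 933 in FD19 lungs. No FD22 array reached an FD19 array of the same RNA. The difference was -0.49 ± 0.14 in polysomal RNA (1.4-fold lower, limma, adjusted p = 0.0239) and -0.52 ± 0.14 in total RNA (1.43-fold lower, limma, adjusted p = 0.0164). At P1 it had 1403, 1619.6 and 1229.7 in polysomal and 766, 916 and 632 in total RNA. The polysomal arrays of P1 all lay above those of FD22, but the difference of 0.27 ± 0.14 was not called (limma, adjusted p = 0.281). The polysomal fall was not called without FD19 lysate 2 or 3 (adjusted p = 0.128 and 0.0875) or FD22 lysate 1 or 3 (0.0746 and 0.0587), and the total fall was not called without FD19 lysate 1 or 2 (0.0704 and 0.0507) or FD22 lysate 3 (0.0904). RefSeq lists Gstp2 as a synonym, and a copy read by the same probe set was not told apart.

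**Figure D2:**
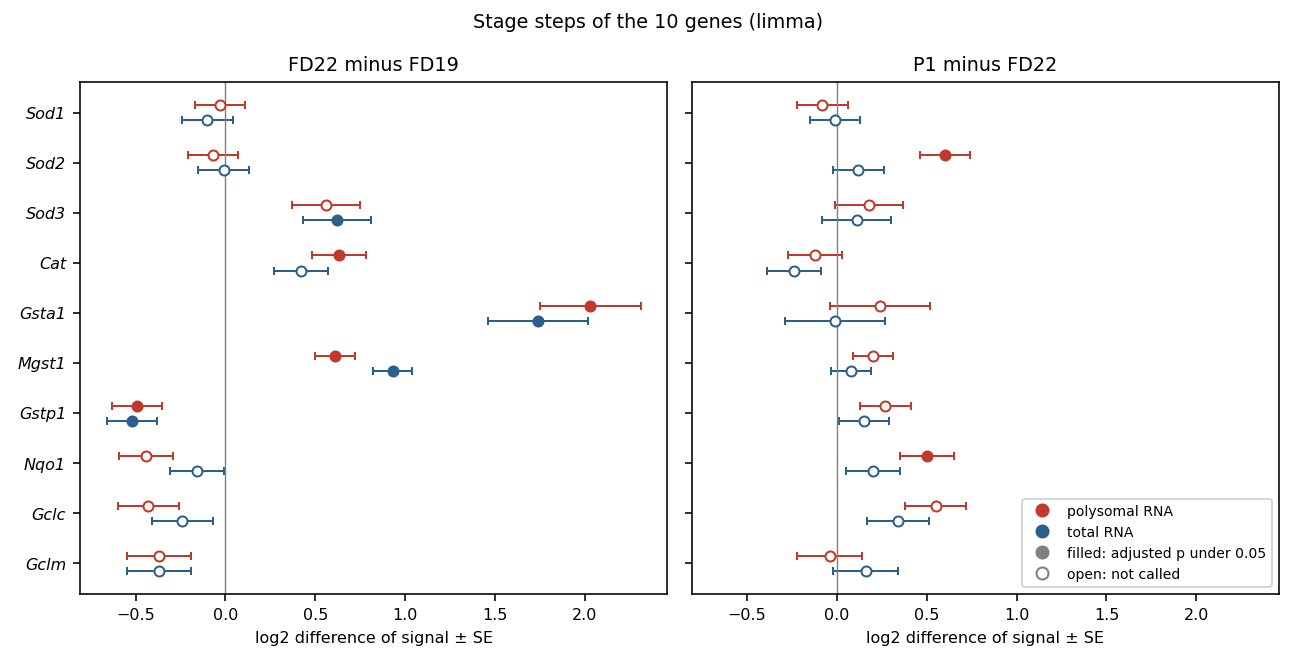
Log2 difference of signal with its SE (horizontal axis) for each of the 10 genes (vertical axis), FD22 minus FD19 on the left and P1 minus FD22 on the right, with polysomal RNA in red above total RNA in blue and filled points at an adjusted p under 0.05. The Gsta1 points of the left panel lie farthest to the right (2.03 and 1.74), and the filled points of the right panel are those of Sod2 (0.60) and Nqo1 (0.50) in polysomal RNA.

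Nqo1, which reduces quinones by 2 electrons at a time, was lowest at FD22 in polysomal RNA. Its polysomal signal was 606, 762 and 787 at FD19, 479, 498 and 605 at FD22, and 851, 687 and 704 at P1. Its total signal was 457, 438 and 498 at FD19, 427, 427 and 388 at FD22, and 591, 458 and 401 at P1. The FD22 polysomal arrays lay below all the others, by about 1 unit of signal where they came closest to FD19. The polysomal difference was 0.50 ± 0.15 for P1 minus FD22 (1.41-fold, limma, adjusted p = 0.0463), and in total RNA it was 0.20 ± 0.15 (limma, adjusted p = 0.556). For FD22 minus FD19 the polysomal difference was -0.44 ± 0.15 (limma, adjusted p = 0.0535; with the replicate number as a block, 0.0447). The call after birth was lost without any 1 of the 6 lysates of those stages but FD22 lysate 3, with an adjusted p of 0.163 and 0.147 without FD22 lysates 1 and 2 and of 0.13, 0.0746 and 0.0683 without P1 lysates 1, 2 and 3, and also with no filter (0.0584), no variance trend (0.075), quantile normalization (0.0696) or only the groups compared (0.146).

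Neither subunit of glutamate-cysteine ligase passed the test at either step. Gclc had a polysomal signal of 137, 150.0 and 121 at FD19, 91.3, 111 and 97.4 at FD22, and 164, 160.2 and 124 at P1, and the FD22 arrays lay below all the others. The polysomal difference of P1 minus FD22 was 0.55 ± 0.17 (limma, adjusted p = 0.0541). In total RNA Gclc had 122, 165 and 130.0 at FD19, 97.2, 114 and 142 at FD22, and 168, 133 and 148 at P1, and neighbouring stages overlapped. The dimmer Gclc probe set gave a larger difference with a wider error (0.85 ± 0.40 in polysomal RNA, adjusted p = 0.223), and its total array of FD22 lysate 3 read 7.8 against 52.7 and 57.3 on the other 2. Gclm had 286, 316 and 308 at FD19, 199, 259.6 and 248 at FD22, and 245, 206 and 234 at P1 in polysomal RNA, and 328, 314 and 289.8 at FD19, 268, 300.3 and 171 at FD22, and 226, 261 and 326 at P1 in total RNA. The FD22 polysomal arrays of Gclm lay below the FD19 ones, a difference of -0.37 ± 0.18 (limma, adjusted p = 0.194).

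The matched RNAs of each lysate show how much of a transcript was on large polysomes relative to the other transcripts, because each array was scaled to the same trimmed mean. Averaged over the 3 stages, Gsta1, Gstp1, Nqo1, Sod2, Sod1 and Mgst1 were called with a higher polysomal than total signal and none with a lower one. That is 6 of 10 genes called, where 47.2% of all genes were called (2893 higher and 2576 lower). Sod3, Cat, Gclc and Gclm were not called. The median of the 10 genes was 0.19, against 0.00 over all genes. That split of all genes depends on the scaling, with 3254 higher and 1991 lower after quantile normalization and 3564 and 1967 after median centring.

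The ratio of Gsta1 was 1.41, 1.62 and 1.81 in the 3 lysates of FD19, 1.53, 1.84 and 2.57 in those of FD22 and 1.98, 2.36 and 2.60 in those of P1. All 9 lysates were above 1, and the mean log2 difference of polysomal minus total was 0.93 ± 0.16 (limma, adjusted p = 0.000154). The ratio of Gstp1 was 1.39, 1.82 and 1.81 at FD19, 1.66, 1.55 and 1.92 at FD22 and 1.83, 1.77 and 1.95 at P1, and its mean difference was 0.79 ± 0.08 (limma, adjusted p = 4.99e-07). The level of Gstp1 fell at FD22, and the change of its ratio at that step was not called. The ratio of Nqo1 was 1.33, 1.74 and 1.58 at FD19, 1.12, 1.17 and 1.56 at FD22 and 1.44, 1.5 and 1.75 at P1, again above 1 in all 9 lysates (mean difference 0.53 ± 0.09, limma, adjusted p = 8.17e-05).

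The ratio of Sod2 was 1.14, 1.41 and 1.47 at FD19, 1.16, 1.27 and 1.4 at FD22 and 1.66, 2.14 and 1.58 at P1. Each P1 lysate was above each fetal lysate. The mean difference was 0.52 ± 0.08 (limma, adjusted p = 3.11e-05), and at P1 alone it was 0.82 ± 0.14 (adjusted p = 0.000389). The change of the ratio itself, P1 minus FD22, was 0.47 ± 0.19, with an unadjusted p of 0.0229 and an adjusted p of 0.949 in limma, so it did not pass the test. In that comparison none of the 10 genes was called (1 with an unadjusted p under 0.05), against 0.0259% of all genes, and for FD22 minus FD19 none was called (0 with an unadjusted p under 0.05), against 0% of all genes.

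Sod1 and Mgst1 had small mean differences of 0.21 ± 0.08 (limma, adjusted p = 0.0381) and 0.17 ± 0.06 (limma, adjusted p = 0.0314). The ratio of Sod1 was 1.17, 1.16 and 1.09 at FD19, 1.41, 1.18 and 1.03 at FD22, and 1.00, 1.54 and 0.96 at P1. The ratio of Mgst1 was 1.33, 1.13 and 1.37 at FD19, 1.16, 0.89 and 1.02 at FD22, and 1.30, 1.17 and 0.89 at P1. Single lysates of both thus lay below 1. Both calls were lost with no filter (adjusted p = 0.0596 and 0.054) or no variance trend (0.0699 and 0.0672). The Sod1 call was lost without FD19 lysate 1, 2 or 3 (0.0775, 0.0883 and 0.0687), FD22 lysate 1 or 2 (0.115 and 0.0693) or P1 lysate 2 (0.159), and the Mgst1 call without FD19 lysate 1 or 3 (0.0744 and 0.0991), FD22 lysate 1 or 3 (0.1 and 0.0523) or P1 lysate 1 or 2 (0.109 and 0.0773).

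Catalase had a ratio below 1 in every FD19 lysate, with 0.69, 0.89 and 0.90 at FD19, 0.72, 0.91 and 1.28 at FD22 and 1.11, 0.84 and 1.14 at P1. None of its differences passed the test (at FD19, -0.29 ± 0.15, limma, adjusted p = 0.177). Sod3 had ratios between 0.67 and 1.39 and Gclm between 0.72 and 1.45, with mean differences of -0.01 ± 0.11 and -0.10 ± 0.10. The brighter Gclc probe set had ratios between 0.69 and 1.21. Its 3 lysates of FD22 were also all below 1, at 0.94, 0.97 and 0.69, with a difference of -0.21 ± 0.17 (limma, adjusted p = 0.417).

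**Figure D3:**
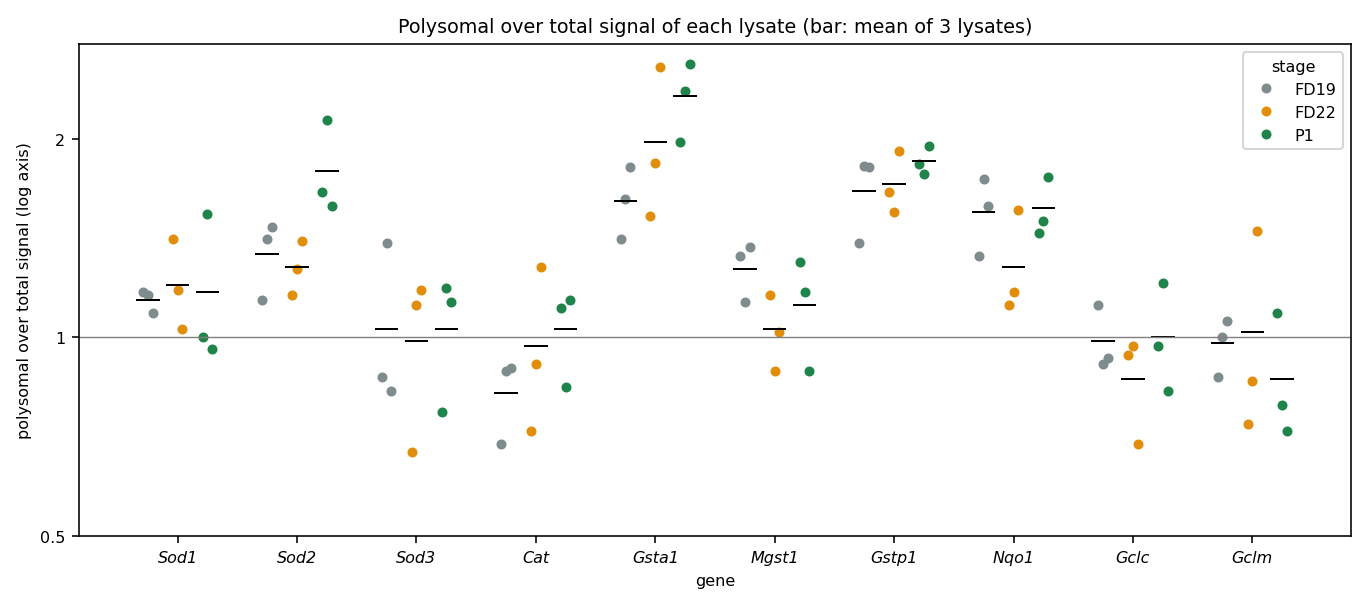
Polysomal over total signal of each lysate (vertical axis, log scale) for each of the 10 genes (horizontal axis), with FD19 in grey, FD22 in orange and P1 in green from left to right; each point is 1 lysate and the bar is the mean of 3. All 9 points of Sod2, Gsta1, Gstp1 and Nqo1 lie above 1, and the 3 green points of Sod2, from 1.58 to 2.14, lie above its other 6.

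Stage by stage, the ratio was called higher for Sod2, Mgst1, Gstp1 and Nqo1 at FD19 (4 of 10 genes, against 22.6% of all genes), for Gsta1 and Gstp1 at FD22 (2 of 10, against 16.6%) and for Sod2, Gsta1, Gstp1 and Nqo1 at P1 (4 of 10, against 20.5%). Gsta1 at FD19 had a difference of 0.65 ± 0.28 (limma, adjusted p = 0.104), which was called with the lysate as a block (adjusted p = 0.00379). Gstp1 was called at all 3 stages, at 0.73, 0.76 and 0.88. At FD19 the calls of Sod2, Mgst1 and Nqo1 each ended without lysate 3, the one whose polysomal array stood apart (0.34, 0.29 and 0.60, adjusted p = 0.242, 0.217 and 0.0662). They also ended without FD19 lysate 2 (adjusted p = 0.216, 0.069 and 0.104), and those of Sod2 and Mgst1 without lysate 1 (0.0535 and 0.154). Quantile normalization also ended the Sod2 call (0.37, adjusted p = 0.0712), and no filter or no variance trend the Mgst1 call (adjusted p = 0.059 and 0.07). The Gsta1 call at FD22 ended without lysate 2, the one with liver transcripts (0.97, adjusted p = 0.0865), or lysate 3 (0.74, adjusted p = 0.19). At P1 the Gsta1 call ended without lysate 2 (adjusted p = 0.0555) and the Nqo1 call without lysate 3 (adjusted p = 0.0668).

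Of 19 measured genes listed as other glutathione transferases and their relatives, 4 rose and 1 fell for FD22 minus FD19 in each RNA. Of all genes 19.6% were called in polysomal and 20.0% in total RNA. For P1 minus FD22 limma called none of the 19 (unadjusted p under 0.05 in 4 in polysomal and 4 in total RNA). Mgst2, a microsomal enzyme, averaged 573 ± 37.4 in FD22 and 245 ± 40.2 in FD19 total RNA (SD, n = 3 each; 1.22 ± 0.20 on the log2 scale, limma, adjusted p = 0.000282). Gstm1, a mu-class enzyme, rose by 0.92 ± 0.16 (limma, adjusted p = 0.000558). Alox5ap, which presents arachidonic acid for leukotriene synthesis and is listed as a relative, not as a transferase, rose by 1.58 ± 0.23 (limma, adjusted p = 0.000113). Gstt3, a theta-class enzyme, fell, with 405 ± 59.1 in FD22 and 737 ± 103 in FD19 (-0.86 ± 0.15, limma, adjusted p = 0.000528). In polysomal RNA Mgst2 (1.17), Gstm1 (0.92) and Gsto2 (1.02) rose and Gstt3 fell (-0.76), and the Gsto2 call ended without FD19 lysate 3 (adjusted p = 0.0852), when 2 were called higher. Over the stages 12 of the 19 were called with a higher polysomal than total signal and 0 with a lower one. Of all genes 47.2% were called (2893 higher and 2576 lower), a split that depends on the scaling. The median of the 19 was 0.42, with 17 above 0. Gstk1, the mitochondrial and peroxisomal kappa enzyme, stood at 0.62 ± 0.09 (limma, adjusted p = 3.53e-05), Mgst3 at 0.61 ± 0.11 and Gstm2 at 0.54 ± 0.09.

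Of 18 measured genes of glutathione supply and recycling, 5 rose and 1 fell for FD22 minus FD19 in each RNA, against 19.6% of all genes called in polysomal and 20.0% in total RNA. Without FD19 lysate 3 they were 4 and 1 in polysomal and 4 and 0 in total RNA. The largest were ectopeptidases that act on glutathione or its breakdown products at the cell surface. Dpep1, a dipeptidase, averaged 629 ± 119 in FD22 and 125 ± 27.7 in FD19 total RNA (2.29 ± 0.19, limma, adjusted p = 4.8e-07), and Anpep, aminopeptidase N, 399 ± 83.8 in FD22 and 110.0 ± 12.4 in FD19 (1.79 ± 0.23, limma, adjusted p = 2.8e-05). Glrx, cytosolic glutaredoxin, rose by 0.96 ± 0.19 and Hagh, a glyoxalase, by 0.64 ± 0.14. After birth 2 of the 18, the mitochondrial glutaredoxins Glrx5 (-0.75 ± 0.18) and Glrx2 (-0.67 ± 0.19), were lower in polysomal RNA, where 10.5% of all genes were called. Neither was called without FD22 lysate 2 (limma, adjusted p = 0.0682 and 0.122). Gsr, glutathione reductase, had a higher polysomal than total signal (0.65 ± 0.14 over the stages, limma, adjusted p = 0.00127).

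In the list of NADPH supply, the reductant of Gsr and Nqo1, 4 of 9 genes fell and 1 rose in total RNA for FD22 minus FD19 (20.0% of all genes were called). Nnt, the mitochondrial transhydrogenase, fell by 0.54, Tkt, transketolase, fell by 0.52, and Nadk, which makes NADP from NAD, rose by 0.90 ± 0.18 (limma, adjusted p = 0.00131). In polysomal RNA 1 of 9, Pgls, was lower, where 19.6% of all genes were called. It was not called without FD22 lysate 2 (limma, adjusted p = 0.138) or FD19 lysate 3 (0.0557). Of 8 genes listed under thioredoxin and peroxiredoxin, 3 rose and 2 fell in total RNA for FD22 minus FD19. In polysomal RNA 3 rose and 3 fell, where 20.0% of all genes were called in total and 19.6% in polysomal RNA. Txnip, a thioredoxin-interacting gene and not itself a thioredoxin, was 1 of the 3 that rose in total RNA (0.74 ± 0.16, limma, adjusted p = 0.00272). Without FD19 lysate 3 the counts were 3 and 1 in total RNA and 3 and 2 in polysomal RNA. Prdx6, a peroxiredoxin abundant in lung that also acts on surfactant phospholipid, averaged 1927 ± 27.8 in FD22 and 1134 ± 89.7 in FD19 total RNA (0.76 ± 0.14, limma, adjusted p = 0.000623). Prdx4, the peroxiredoxin of the endoplasmic reticulum, averaged 775 ± 140 in FD22 and 1538 ± 96.2 in FD19 (-1.0 ± 0.13, limma, adjusted p = 2.71e-05). None of the 8 was called by limma after birth in either RNA (unadjusted p under 0.05 in 0 in polysomal and 0 in total RNA).

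Of 18 other NRF2 target genes, 4 rose and 1 fell in total RNA for FD22 minus FD19 (2 and 0 without FD19 lysate 3), and 4 rose and 3 fell in polysomal RNA (4 and 1), where 20.0% and 19.6% of all genes were called. Ephx1, microsomal epoxide hydrolase, averaged 264 ± 45.4 in FD22 and 75.2 ± 24.1 in FD19 total RNA (1.76 ± 0.23, limma, adjusted p = 3.56e-05). After birth Hmox1, heme oxygenase, averaged 644 ± 147 in P1 and 309 ± 66.6 in FD22 polysomal RNA (1.04 ± 0.21, limma, adjusted p = 0.00532) and stayed called without FD22 lysate 2 (0.88, adjusted p = 0.0387). Aldh1a1, a retinaldehyde dehydrogenase, was also called higher (0.64) and Nqo2 lower (-0.78) in that comparison, and neither was called without FD22 lysate 2 (adjusted p = 0.19 and 0.102). Cbr3, a carbonyl reductase, had the largest polysomal excess of the list over the stages, 2.11 ± 0.25 (limma, adjusted p = 2.07e-06). Cbr3 was dim, with polysomal means of 46.4, 34.3 and 32.5 and total means of 4.83, 4.6 and 3.27 at FD19, FD22 and P1. These total means lay below the constant added before log2, so the size of its difference is uncertain. Cbr3 passed the filter through its polysomal arrays alone. The filter thus favoured a polysomal excess, and no conclusion is drawn from its rank or p-value.

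Of 9 regulators of the NRF2 pathway, the small MAF genes Maff and Mafk were the ones called after birth, 2 of 9 in each RNA. Of all genes, 4.96% were called in total RNA and 10.5% in polysomal RNA. In total RNA Maff averaged 117 ± 16.1 in P1 and 50.5 ± 12.7 in FD22 (1.15 ± 0.20, limma, adjusted p = 0.0027), and Mafk 268 ± 26.3 in P1 and 143 ± 32.9 in FD22 (0.90 ± 0.16, limma, adjusted p = 0.00319). Without FD22 lysate 2 both stayed called in total RNA (adjusted p = 0.0196 and 0.0208). In polysomal RNA the differences were 0.71 ± 0.20 and 0.62 ± 0.16 (adjusted p = 0.0338 and 0.0219), and neither was called without that lysate (0.106 and 0.1). For FD22 minus FD19, 1 of the 9 was called higher in total RNA and 2 in polysomal RNA, against 20.0% and 19.6% of all genes called. Nfe2l1, an NRF2 relative, rose at that step in total RNA (0.60 ± 0.13) and in polysomal RNA (0.68 ± 0.13). Mafk also rose in polysomal RNA (0.49 ± 0.16, limma, adjusted p = 0.046). Nfe2l2, which encodes NRF2, had a mean polysomal minus total difference of 0.35 ± 0.07 (limma, adjusted p = 0.000607). That of Bach1, a repressor at the same elements, was -1.54 ± 0.28 (limma, adjusted p = 0.000239). Bach1 was dim, with polysomal means of 4.03 at FD22 and 9.23 at P1 and total means of 30.9 and 45.5, so the size of its difference is uncertain.

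**Figure D4:**
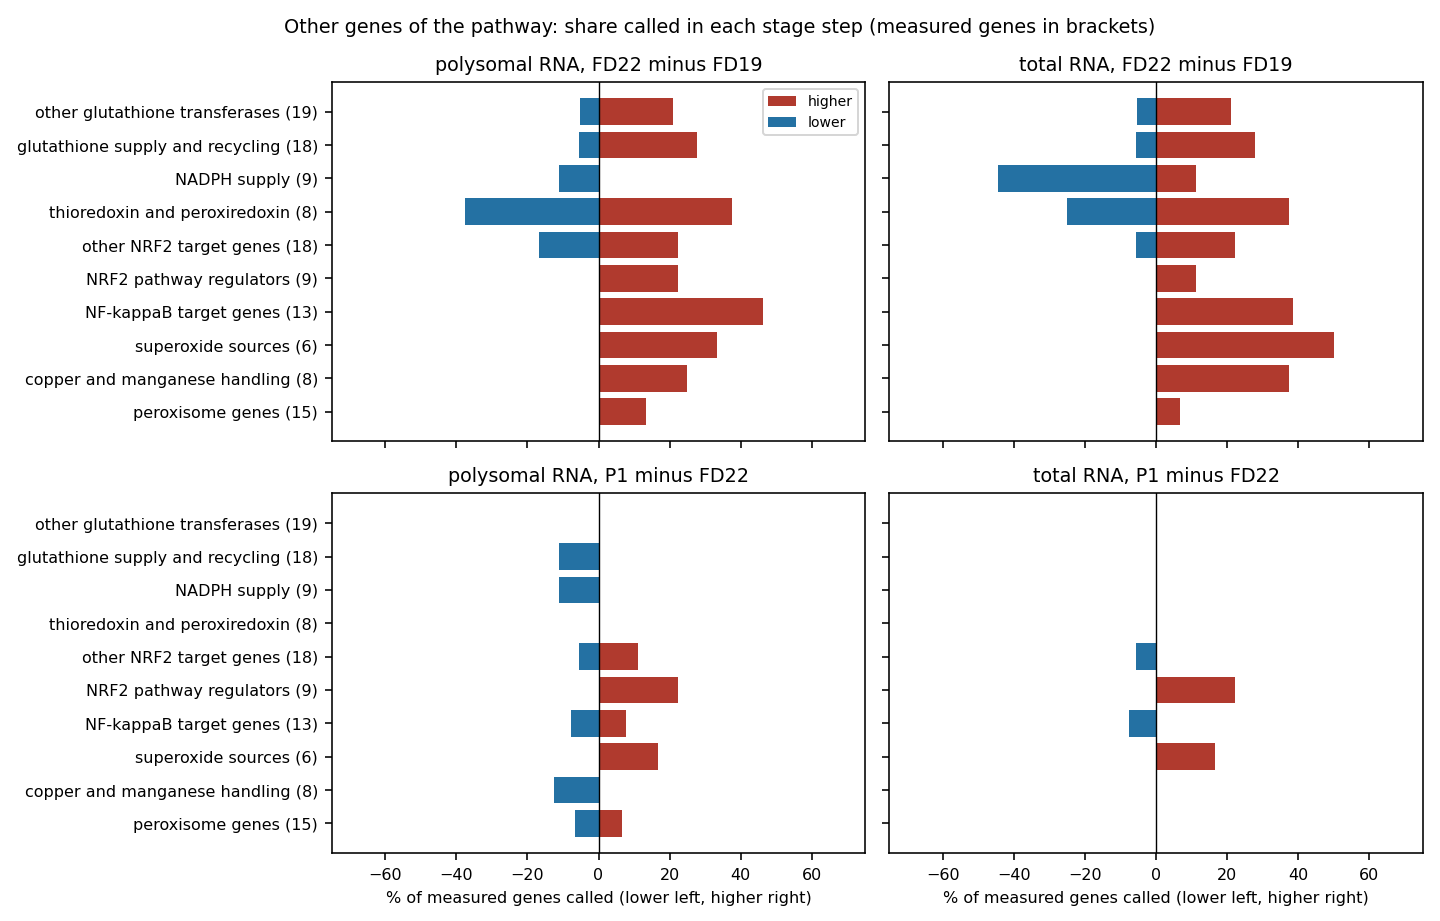
Percent of the measured genes of each of 10 lists (vertical axis, number measured in brackets) called higher (red, right) or lower (blue, left), in polysomal RNA (left panels) and total RNA (right panels), for FD22 minus FD19 (top) and P1 minus FD22 (bottom). The top panels hold most of the calls, such as 5 of 18 genes of glutathione supply called higher in total RNA (20.0% of all genes were called). In the bottom right panel the 2 of 9 NRF2 regulators called higher are Maff and Mafk (4.96% of all genes were called).

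Of 6 measured genes for sources of superoxide, 3 were called higher in total RNA and 2 in polysomal RNA for FD22 minus FD19, against 20.0% and 19.6% of all genes called in either direction. Xdh, xanthine dehydrogenase, which forms superoxide in its oxidase form, also rose after birth: in total RNA it averaged 143 ± 2.80 at FD19, 439 ± 78.9 at FD22 and 1215 ± 323 at P1 (P1 minus FD22, 1.44 ± 0.25, limma, adjusted p = 0.00301). In polysomal RNA it averaged 1267 ± 448 in P1 and 469 ± 129 in FD22 (1.4 ± 0.25, limma, adjusted p = 0.00228). Both calls held without FD22 lysate 2 (adjusted p = 0.0143 and 0.0168). Cybb and Ncf1, parts of the phagocyte NADPH oxidase, rose for FD22 minus FD19 in total RNA (1.14 ± 0.25 and 1.34 ± 0.37), as did the macrophage and neutrophil markers, whose summed signal ranged from 7204 to 10657 in FD22 and from 2691 to 3011 in FD19; their part in the result was not tested.

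Sod2 is known as an NF-kappaB target gene, and 13 measured others were listed for that reason. For FD22 minus FD19, 5 of the 13 were higher in total RNA and 6 in polysomal RNA, against 20.0% and 19.6% of all genes called. Without FD19 lysate 3, 3 were higher in polysomal RNA. Nfkbia, the inhibitor of NF-kappaB, averaged 646 ± 120 in FD22 and 318 ± 38.5 in FD19 total RNA (1.00 ± 0.19, limma, adjusted p = 0.000941). In polysomal RNA for P1 minus FD22, 1 of the 13 was higher and 1 lower, against 10.5% of all genes. A part of NF-kappaB in the Sod2 values was not tested. The chemokine gene Cxcl1 was the higher one (1.84 ± 0.45) and was not called without FD22 lysate 2 (limma, adjusted p = 0.0928). The adhesion molecule Vcam1 was the lower one (-0.77 ± 0.19). Among 8 genes of copper and manganese handling, Slc39a8, a transporter of zinc and manganese, averaged 478 ± 85.1 in FD22 and 149 ± 16.5 in FD19 total RNA (1.63 ± 0.22, limma, adjusted p = 3.59e-05). Ccs, the chaperone that loads copper into Sod1, had a polysomal excess of 1.19 ± 0.10 over the stages (limma, adjusted p = 2.49e-08), and Atox1, the chaperone of the copper pumps, a deficit of -1.42 ± 0.14 (limma, adjusted p = 3.54e-07). Of 15 peroxisome genes, the list of catalase's organelle, 1 was higher in total RNA for FD22 minus FD19 (Scp2, 0.56 ± 0.13). In polysomal RNA 2 were (Hsd17b4, 0.55 ± 0.14, and Scp2, 0.40 ± 0.13). Of all genes, 20.0% were called in total and 19.6% in polysomal RNA. Scp2 was not called in polysomal RNA without FD22 lysate 2 (adjusted p = 0.178) or FD19 lysate 3 (0.12).

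Across the 18 arrays, which share stages and RNA kinds, the genes whose log2 signal ran closest to a member are a description only. For Gsta1 they were Saa3 (Pearson r = 0.951), RT1-S3 (0.95) and Smpdl3a (0.948), for Mgst1 Clec7a (0.962), Ccl6 (0.961) and Cd59b (0.96), and for Gstp1 Psmd8 (0.965), Qdpr (0.959) and Psma2 (0.959). For Sod2 they were Kat5 (0.901), Dhrs1 (0.9) and C1qc (0.9), for Cat Slc2a13 (0.928), Stat6 (0.905) and Phex (0.902), and for Nqo1 Mark3 (0.939), Apmap (0.927) and Nsun2 (0.919). For Sod3 they were Cd44 (0.917), Akap5 (0.907) and Esam (0.905). The closest were weaker for Gclm (Six4, 0.866), Sod1 (Fabp3, 0.854) and Gclc (Nipa2, 0.789). No other member was among the 3 closest genes of any member.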

How the data were processed

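The deposited table holds linear signal intensity per probe set of the Affymetrix Rat Genome 230 2.0 array, made by the authors with GCOS 1.4 per the submitters' processing notes. The signal algorithm is not given in the sources used here. Each array had a 2% trimmed mean of 150.0, and array medians ran from 51.6 to 73.5. Per the labels' protocols, 5 ug of RNA was labelled for each array. With 3 arrays a group, their number limits the precision.

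The table lists 31099 probe sets, and 57 that read array controls were dropped. The filter asked for a signal over 40.9, which is the 40th percentile, on 3 or more arrays. The 10th percentile (5.6) was added before log2. The fit used limma 3.58.1 in R 4.3.3, with 6 group means, a variance trend and Benjamini-Hochberg adjustment over all 21655 probe sets. Genes were named from GEO's platform annotation, where 20826 probe sets had 1 gene, 436 several and 9780 none. A gene with several probe sets was represented by the brightest one annotated to it alone. Of each list, up to 4 called genes a comparison with the largest difference could be named, and the 3 genes closest to each member by Pearson r. Members and lists were chosen with earlier results of these data known.

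The 2 RNAs of a lysate pair by design (correlation of deviations 0.185 to 0.483 in 9 of 9 pairs). Arrays of the same replicate number also correlated between FD19 and FD22 in polysomal RNA (0.499, 0.287 and 0.228). They did so between FD19 and P1 in total RNA (0.313, 0.118 and 0.135, stages not compared here). In each other pair of stages at least 1 correlation was under 0.1. Replicate 1 correlated across stages in every pair (0.313 to 0.499), about as high as the 2 RNAs of a lysate. These correlations alone thus do not show pairing by lysate, and the source of the replicate 1 likeness was not tested. Litters were separate per the labels, so replicates are separate litters. In simulated data 67, 67 and 66 of 21655 probe sets were changed by 1.5-fold, 2-fold and 4-fold, with noise independent between arrays. For P1 minus FD22 in polysomal RNA 11.9%, 53.7% and 92.4% of them were recovered, and for the change of the ratio 4.5%, 26.9% and 75.8%. In the data 1806 probe sets were called in that polysomal comparison, so the adjusted threshold was stricter in the simulation and its recovery may be too low. Promoter windows came from RefSeq (GRCr8). Alternatives were other constants, filters and scalings, blocks, fits of only the groups compared, and each lysate left out; list counts without FD22 lysate 2 or FD19 lysate 3 were added after the data were seen.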

Additional observations from a re-analysis of the deposited data

How the results depend on the processing

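Under all alternatives run, no called difference of a member changed sign, and of the calls and values of single members 1453 kept their side of the threshold, 65 lost a call, 19 gained one and 103 that were not called changed sign. The 2 members called for P1 minus FD22 in polysomal RNA became 1 with no filter, quantile normalization or no variance trend, 0 with only the groups compared, and 0 to 2 when lysates were left out (0 without FD22 lysate 1 or without replicate 1 of every group). The 4 members called in total RNA for FD22 minus FD19 became 2 to 4 when lysates were left out. The 4 ratio calls at FD19 became 1 to 2 whichever FD19 lysate was left out, and the 2 ratio calls at FD22 became 1 to 2. Beside the calls given above, the replicate number as a block added Cat in total RNA for FD22 minus FD19 (limma, adjusted p = 0.0285). There replicate 3 correlated at -0.031 between the stages. The block also added Gclc in polysomal RNA for P1 minus FD22 (0.038). The block changed no other call named. Median centring added Sod2 at FD22 in the ratio (adjusted p = 0.0394), Sod3 in polysomal RNA for FD22 minus FD19 (0.0478) and Gclc in polysomal RNA for P1 minus FD22 (0.0343). It also moved the split of all genes called for P1 minus FD22: 404 higher and 183 lower, against 305 and 269 without centring, in total RNA, and 701 and 521, against 549 and 672, in polysomal RNA. The filter at the 60th percentile added Cat in total RNA (0.047), Sod3 and Nqo1 in polysomal RNA (0.045 and 0.0417), all for FD22 minus FD19, and Gclc in polysomal RNA for P1 minus FD22 (0.0411). Quantile normalization added Nqo1 in polysomal RNA for FD22 minus FD19 (0.0354), and fitting only the groups compared added Cat in total RNA for FD22 minus FD19 (0.0261) and Gsta1 in the ratio at FD19 (0.0183). The cause of these shifts was not tested. With 3 litters a stage, a 1.5-fold change was recovered in a minority of simulated probe sets, in data where few probe sets were changed. Where a signal sat near or under the filter, as on the dim Gclc probe set and for Cbr3 and Bach1, background limits the difference. The same limit holds for Alox5ap (mean 31.0 in FD19 total RNA) and Ncf1 (14.3 in FD19 total RNA). It also holds for Gsto2 (19.5 in FD19 polysomal RNA) and Cxcl1 (17.1 in FD22 polysomal RNA).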
